A study of Mus musculus with 9 samples.

Results

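Matricellular proteins are secreted into the extracellular matrix, where they signal to cells rather than build the scaffold. The 10 genes described here encode members of the CCN family (Ccn1, Ccn2, Ccn3, Ccn4 and Ccn5), tenascin C (Tnc), periostin (Postn), spondin 2 (Spon2) and thrombospondins 1 and 2 (Thbs1 and Thbs2). They were taken as all non-control probes whose transcript accession belongs to 1 of these genes, which gave 15 probes among the 32994 probes, for 22911 genes, that could be given a single gene symbol. The probes were chosen by accession alone. The genes themselves were selected on earlier results of these arrays, in which the CS minus air difference of Spon2 stood among the largest falls (CS, cigarette smoke). The members' differences are therefore descriptions, and each adjusted p-value given for one only places its probe in the fit over all probes.

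RNA levels were measured in whole lung of male C57BL/6J mice, 12 weeks old at the start. The IQOS group breathed aerosol of a heated tobacco product at 3.5%, the CS group breathed cigarette smoke at 3.5%, and the air group breathed fresh air, each for 6 months. Each group had 3 one-colour arrays hybridised with Cy3-labelled total RNA. The labels number the arrays but do not say that each came from a separate mouse, so the p-values cover the spread from sample to sample, which may be technical.

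Matricellular proteins bind integrins, syndecans, growth factors and matrix fibres, and so change adhesion, growth factor activation and repair. In adult lung several of them are low at rest and are made mainly by fibroblasts, smooth muscle and endothelium during injury or remodelling. Ccn1, Ccn2 and Thbs1 are early-response genes to stretch, serum and growth factors, with the co-activators YAP and TAZ acting through TEAD factors on Ccn1 and Ccn2. In whole-lung RNA, fewer cells of a type and less RNA per cell cannot be told apart.

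The bases just before the annotated start are shown for Ccn1 and Tnc, because Ccn1 stands for the early-response members and Tnc for those with lower levels in both exposed groups. RefSeq (mouse build GRCm38.p6) gave such a window for 4 of the 10 members, the others being Postn and Thbs2. Each line gives 250 bases read 5′ to 3′ on the minus strand, ending at the base before the outermost start, with matches to the letters searched in capitals.
Ccn1, chr3:145649986-145650235: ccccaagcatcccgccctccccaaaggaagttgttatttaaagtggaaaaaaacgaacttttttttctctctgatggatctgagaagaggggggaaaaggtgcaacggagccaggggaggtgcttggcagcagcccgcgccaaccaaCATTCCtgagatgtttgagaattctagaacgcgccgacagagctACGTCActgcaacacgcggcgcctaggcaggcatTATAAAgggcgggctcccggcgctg
Tnc, chr4:64047016-64047265: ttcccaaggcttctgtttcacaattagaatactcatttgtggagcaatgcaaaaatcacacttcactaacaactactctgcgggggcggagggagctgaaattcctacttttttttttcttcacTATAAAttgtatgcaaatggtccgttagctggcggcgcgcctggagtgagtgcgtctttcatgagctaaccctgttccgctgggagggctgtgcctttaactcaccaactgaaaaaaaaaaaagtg
The search covered both strands and used GGAATG for TEAD, TGACGT for the cyclic AMP response element core, TGANTCA for AP-1, TATAAA for the TATA box, and the CArG box of serum response factor by name. The Ccn1 window held GGAATG on the opposite strand at bases 103 to 98 before the start, TGACGT on the opposite strand at bases 59 to 54, and TATAAA at bases 25 to 20. The Tnc window held TATAAA at bases 126 to 121 and none of the other letters, and neither window held TGANTCA or a CArG box. Among 32851 windows of the same length, GGAATG occurred in 12.6%, TGACGT in 6.47%, TGANTCA in 6.75%, TATAAA in 12.4% and a CArG box in 1.47%. A match describes the letters only.

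Levels are given as log2 of the processed signal relative to the 75th percentile of the same array, so 0 is that percentile, and levels of different probes are not compared. The 75th percentile lay between 973.3 and 1098 signal units, between 64.3% and 68.8% of an array's probes were well above background, and no spot was saturated. Slide 2 carried the 3 IQOS arrays alone, and slide 1 the 3 CS and 3 air arrays. In any difference that involves IQOS, exposure and slide cannot be told apart. The IQOS arrays and air arrays 1 and 2 lay in row 1 of their slides, and the CS arrays and air array 3 in row 2. All 7 lung epithelial markers checked were well above background on all 9 arrays. A gene passed the test at an adjusted p-value under 0.05, with limma and Benjamini-Hochberg adjustment over 37258 probes.

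All 10 members had a tested probe, and 13 of the 15 probes were tested. Thbs2 entered the test through the air group alone. In CS minus air, 5 members passed, 1 higher and 4 lower, where 11.7% of 16593 genes and 10.3% of probes passed (genes: 5.6% higher and 6.12% lower). In IQOS minus air, 3 members passed, all lower, where 2.87% of genes and 3.72% of probes passed (genes: 1.99% higher and 0.886% lower). In IQOS minus CS, 1 member passed, higher, where 10.1% of genes and 9.64% of probes passed (genes: 4.94% higher and 5.18% lower). Spon2 is the member counted in IQOS minus CS and is among those counted in CS minus air. It was selected on CS minus air, so its passing in either is not a result. Because the members were listed with such results known, nothing is read from these shares. The median member difference was -0.43 in CS minus air, -0.15 in IQOS minus air and -0.04 in IQOS minus CS, against medians of -0.02, -0.01 and 0.02 over all genes.

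**Figure D1:**
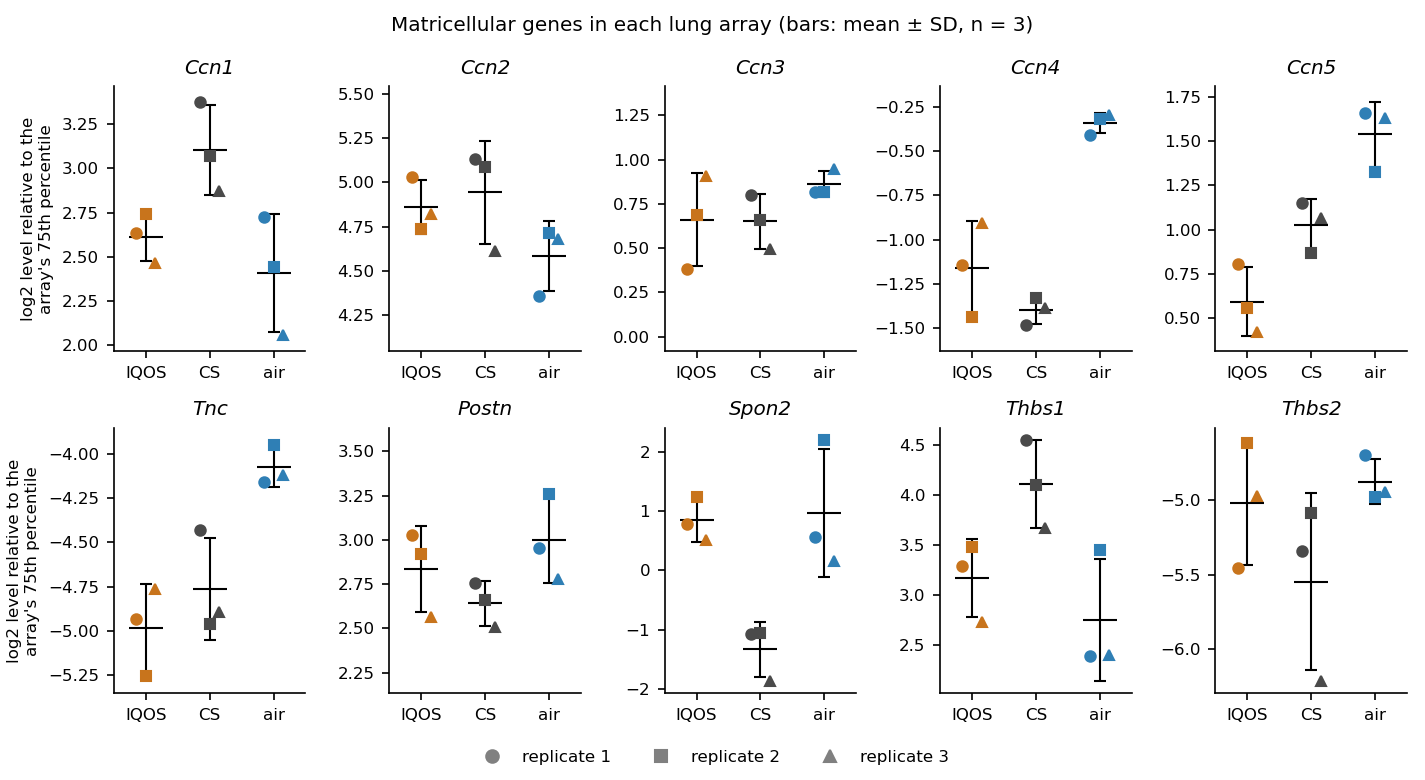
Levels of the 10 members in each array, with the exposure groups on the x axis and the log2 level relative to the array's 75th percentile on the y axis; symbols mark replicates and bars the mean ± SD (n = 3). Ccn4, Ccn5 and Tnc lie below air in both exposed groups, whereas Spon2 is low in the CS arrays, between -1.87 and -1.06, and lies between 0.51 and 1.24 in the IQOS arrays.

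Ccn4, Ccn5 and Tnc fell in both exposed groups. The IQOS and CS comparisons share the air arrays, so the values of each are given side by side and their likeness is not counted as a result. Ccn4 (also Wisp1; chromosome 15, bases 66891369 to 66923201) is induced by Wnt signalling and has been studied in lung fibrosis. Its level was -1.14, -1.44 and -0.91 in the IQOS arrays, -1.48, -1.33 and -1.38 in the CS arrays, and -0.41, -0.32 and -0.30 in the air arrays. Every exposed array was below every air array, and the IQOS and CS arrays overlapped. Ccn4 fell by 0.82 ± 0.12 (SE) in IQOS minus air, a 1.77-fold difference with an adjusted p of 0.0187, and by 1.06 ± 0.12 in CS minus air, a 2.08-fold difference with an adjusted p of 0.00552. IQOS minus CS was 0.24 ± 0.12, with an adjusted p of 0.259. The IQOS minus air call ended without air 1 (adjusted p 0.0721), air 2 (0.0502) or air 3 (0.0676), while the CS minus air call held without any 1 of the 9 arrays. A second Ccn4 probe was not well above background on any array and was not tested.

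Ccn5 (also Wisp2; chromosome 2, bases 163820752 to 163833146) lacks the C-terminal cystine-knot module of its relatives and restrains smooth muscle growth. It measured 0.80, 0.55 and 0.42 in the IQOS arrays, 1.15, 0.87 and 1.07 in the CS arrays and 1.66, 1.33 and 1.63 in the air arrays. The 3 groups did not overlap, with IQOS lowest and air highest. In IQOS minus air Ccn5 fell by 0.95 ± 0.13 (1.93-fold, adjusted p 0.0145), and in CS minus air by 0.51 ± 0.13 (1.42-fold, adjusted p 0.0483). The difference between the exposures, IQOS minus CS, was -0.43 ± 0.13, with an adjusted p of 0.0774. Single arrays carried weight here. The IQOS minus air call ended without air 1 (0.0712), air 3 (0.0583) or IQOS 2 (0.0636). That of CS minus air ended without 7 of the 9 arrays and held only without air 2 (adjusted p 0.0461) or IQOS 1 (0.0434), the highest value being 0.151 without air 1.

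Tnc (chromosome 4, bases 63959785 to 64047015) encodes a large glycoprotein that is sparse in healthy adult tissue and appears during development and repair. The level of its tested probe was -4.93, -5.26 and -4.77 in the IQOS arrays, -4.43, -4.96 and -4.89 in the CS arrays, and -4.16, -3.95 and -4.12 in the air arrays. All air arrays were above all exposed arrays, and IQOS and CS overlapped. The IQOS minus air difference was -0.91 ± 0.17 (1.88-fold lower, adjusted p 0.0328) and the CS minus air difference was -0.69 ± 0.17 (1.61-fold lower, adjusted p 0.0425). IQOS minus CS was -0.22 ± 0.17 (adjusted p 0.426). With normexp background correction the differences were -0.46 in IQOS minus air and -0.29 in CS minus air, and the second did not pass (adjusted p 0.0871). The first call held only without 1 of the CS arrays, reaching 0.103 without air 1, and ended also without air 2, air 3 or any IQOS array. The second held only without CS 1, IQOS 2 or IQOS 3, and reached 0.126 without CS 2. The other Tnc probe was well above background on air 2 alone among the 9 arrays. It was not tested, and no fold is given because the air mean rests on that array.

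Spon2 (also mindin; chromosome 5, bases 33213518 to 33218254) binds integrins and bacterial lipopolysaccharide and takes part in recruiting neutrophils and macrophages in mice. It was 0.78, 1.24 and 0.51 in the IQOS arrays, -1.08, -1.06 and -1.87 in the CS arrays and 0.57, 2.19 and 0.15 in the air arrays. Every CS array was below every other array, whereas IQOS and air overlapped, and air 2 was the highest of the 9. In CS minus air, the contrast in which the gene had stood out, Spon2 was lower by 2.31 ± 0.51, a 4.95-fold difference and the sixth lowest of 16593 genes. Without air 2 that difference was -1.70. The IQOS minus air difference was -0.13 ± 0.51 with an adjusted p of 0.910, and without air 2 it was 0.48. IQOS minus CS was 2.18 ± 0.51, a 4.53-fold difference. It shares the CS arrays with the contrast on which the gene was selected, so it too is a description and no p-value is given. It lay between 1.91 and 2.35 when any 1 array was left out. With array row as a covariate it was 0.95 ± 0.80, and CS minus air was -1.49 ± 0.62. Row varied within the air group alone, so the row term is air 3 against air 1 and air 2. That fit sets the CS arrays against air 3 and cannot tell row from the spread of the air arrays.

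Thbs1 (chromosome 2, bases 118111876 to 118127133) encodes the thrombospondin that releases transforming growth factor beta from its latent form and restrains angiogenesis through Cd36 and Cd47. Its brighter probe measured 3.29, 3.48 and 2.74 in the IQOS arrays, 4.55, 4.11 and 3.67 in the CS arrays and 2.39, 3.45 and 2.40 in the air arrays. The CS arrays were above all other arrays, and IQOS and air overlapped. Thbs1 rose by 1.36 ± 0.35 in CS minus air (2.57-fold, adjusted p 0.0468), and its other probe differed by 1.25 with an adjusted p of 0.0549. IQOS minus air was 0.42 ± 0.35 (adjusted p 0.518) and IQOS minus CS was -0.94 ± 0.35 (adjusted p 0.127), with no overlap between IQOS and CS. The CS minus air call held only without air 2, where the adjusted p was 0.0285, and ended without any other array, reaching 0.146 without air 1.

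Ccn1 (also Cyr61; chromosome 3, bases 145646971 to 145649985) is an integrin ligand induced within minutes to hours of growth stimuli, and it drives fibroblast senescence in wound repair. It had 2.64, 2.74 and 2.47 in the IQOS arrays, 3.37, 3.07 and 2.87 in the CS arrays and 2.73, 2.44 and 2.06 in the air arrays. As with Thbs1, the CS arrays were the 3 highest and IQOS overlapped air. The CS minus air difference of 0.70 ± 0.19 did not pass (adjusted p 0.0531), nor did IQOS minus air at 0.20 ± 0.19 (0.560) or IQOS minus CS at -0.49 ± 0.19 (0.135). Ccn1 and Thbs1 ran in the same direction in CS minus air, with only Thbs1 past the threshold.

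Ccn2 (also connective tissue growth factor; chromosome 10, bases 24595442 to 24598683) is a target and cofactor of transforming growth factor beta in fibrosis. It was 5.03, 4.73 and 4.82 in the IQOS arrays, 5.13, 5.09 and 4.61 in the CS arrays and 4.36, 4.72 and 4.68 in the air arrays. The IQOS arrays were just above the air arrays and the CS arrays overlapped both. The difference was 0.28 ± 0.16 in IQOS minus air (adjusted p 0.359), 0.36 ± 0.16 in CS minus air (0.188) and -0.08 ± 0.16 in IQOS minus CS (0.783). Ccn3 (also Nov; chromosome 15, bases 54745910 to 54753762) counters Ccn2 in several fibrosis models. It had 0.38, 0.69 and 0.91 in the IQOS arrays, 0.80, 0.66 and 0.49 in the CS arrays and 0.82, 0.82 and 0.95 in the air arrays. All CS arrays were below the air arrays by a small margin, and the IQOS arrays spanned both groups. Differences were -0.20 ± 0.14 in IQOS minus air (adjusted p 0.424), -0.21 ± 0.14 in CS minus air (0.343) and 0.01 ± 0.14 in IQOS minus CS (0.974).

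Postn (chromosome 3, bases 54359267 to 54391041) is made by fibroblasts and by airway epithelium exposed to interleukin-13, and it aids collagen cross-linking. Its brightest probe measured 3.03, 2.92 and 2.56 in the IQOS arrays, 2.75, 2.66 and 2.51 in the CS arrays and 2.95, 3.26 and 2.78 in the air arrays. The CS arrays were all below the air arrays, and the IQOS arrays overlapped both. No difference passed, at -0.16 ± 0.16 in IQOS minus air (adjusted p 0.591), -0.36 ± 0.16 in CS minus air (0.177) and 0.20 ± 0.16 in IQOS minus CS (0.447). Its 3 probes ran from -0.34 to -0.16, from -0.39 to -0.36 and from 0.03 to 0.20 in those 3 comparisons.

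Thbs2 (chromosome 17, bases 14665500 to 14694262) restrains angiogenesis and collagen fibre assembly. It was near the detection limit, at -5.45, -4.62 and -4.97 in the IQOS arrays, -5.34, -5.08 and -6.22 in the CS arrays and -4.70, -4.98 and -4.95 in the air arrays. It was well above background on 2 IQOS arrays, no CS array and all 3 air arrays, and all CS arrays were below the air arrays while IQOS overlapped both. It did not pass in IQOS minus air (-0.14 ± 0.31, adjusted p 0.826), in CS minus air (-0.67 ± 0.31, 0.192) or in IQOS minus CS (0.53 ± 0.31, 0.299). Against the detection limit of the CS arrays, the bound on the difference of means was 1.23-fold lower with CS. The bound takes no account of the spread, and Thbs2 was tested through the air group alone, so it is not a result.

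**Figure D2:**
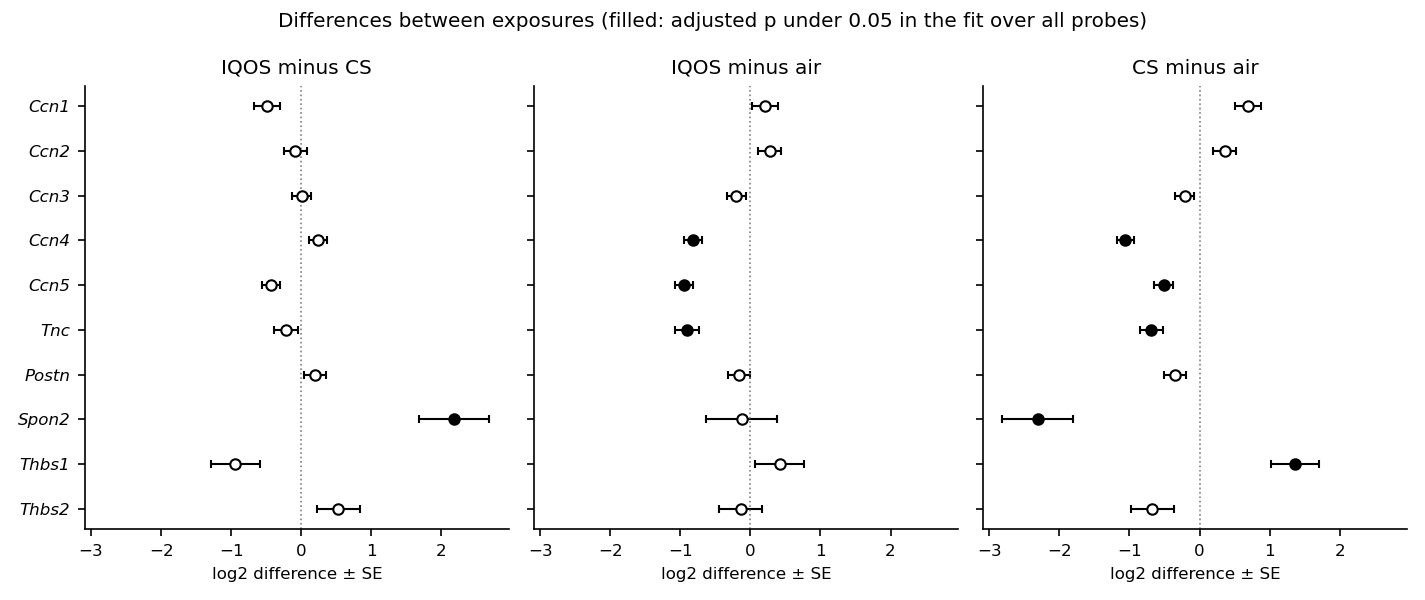
Log2 difference ± SE of each member (x axis) in IQOS minus CS, IQOS minus air and CS minus air, with filled points at an adjusted p under 0.05 in the limma fit. Ccn4, Ccn5 and Tnc are filled and negative against air in both exposures, and Spon2 is at 2.18 in IQOS minus CS and -2.31 in CS minus air. Spon2 is filled in both, which is not a result because the gene was selected on CS minus air.

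Groups did not overlap for 9 of the 10 members in CS and air, 2 of them higher and 7 lower with CS, where 38.2% of genes did not overlap (17.2% higher and 21% lower). IQOS and air did not overlap for 4 members, 1 higher and 3 lower, where 28.1% of genes did not. IQOS and CS did not overlap for 4 members, 1 higher and 3 lower, where 35.3% did not. The 7 lower with CS include Spon2, selected on that contrast. They also include Thbs2, which was tested through the air group alone and was well above background on no CS array. Spon2 is also the 1 higher in IQOS than in CS. Nothing is read from these counts.

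Of 9 listed close relatives of the members 7 were tested, and in CS minus air 1 fell and none rose, a share near the 11.7% of all genes that passed. That gene was Thbs3, a pentameric thrombospondin best known from bone and muscle, with 3.14, 3.39 and 3.17 in the IQOS arrays, 2.97, 3.15 and 2.52 in the CS arrays and 3.67, 3.65 and 3.79 in the air arrays. All air arrays were above all exposed arrays. It fell by 0.83 ± 0.15 in CS minus air (adjusted p 0.0196), and the call ended without air 1 or air 3, reaching 0.0683. In IQOS minus air it was -0.47 ± 0.15 (adjusted p 0.133). In CS minus air Thbs4, well above background on 1 CS and 2 air arrays, was at -0.71 (adjusted p 0.204), the cartilage oligomeric matrix protein gene Comp at -0.60 (0.290) and the periostin relative Tgfbi at 0.70 (0.0899). No relative passed in IQOS minus air or IQOS minus CS. The median difference of the 7 was 0.06 in IQOS minus air, -0.35 in CS minus air and 0.35 in IQOS minus CS. The genes that were not tested were Ccn6 and Tnr.

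Of 16 matricellular genes of other families 15 were tested, among them Sparc, Spp1 and the fibulins. In CS minus air only Lgals3, the galectin 3 gene that macrophages express strongly, passed, against 11.7% of all genes. Its level was 5.30, 5.46 and 5.40 in the IQOS arrays, 6.35, 6.39 and 6.56 in the CS arrays and 5.75, 5.55 and 5.93 in the air arrays, so the 3 groups did not overlap and IQOS was lowest. It rose by 0.69 ± 0.11 in CS minus air (adjusted p 0.0114) and fell by 1.05 ± 0.11 in IQOS minus CS (adjusted p 0.00273), and both calls held without any 1 array. Spock1, a testican proteoglycan gene, was -0.82, -0.79 and -0.99 in the IQOS arrays, -1.51, -1.42 and -1.44 in the CS arrays and -1.38, -1.43 and -1.46 in the air arrays. The IQOS arrays were above all others. Spock1 rose by 0.55 ± 0.07 in IQOS minus air (adjusted p 0.0106) and by 0.59 ± 0.07 in IQOS minus CS (0.00432). The first of these calls ended without air 1 or IQOS 2, reaching 0.0521. The list's median was -0.10 in IQOS minus air, -0.16 in CS minus air and 0.07 in IQOS minus CS.

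**Figure D3:**
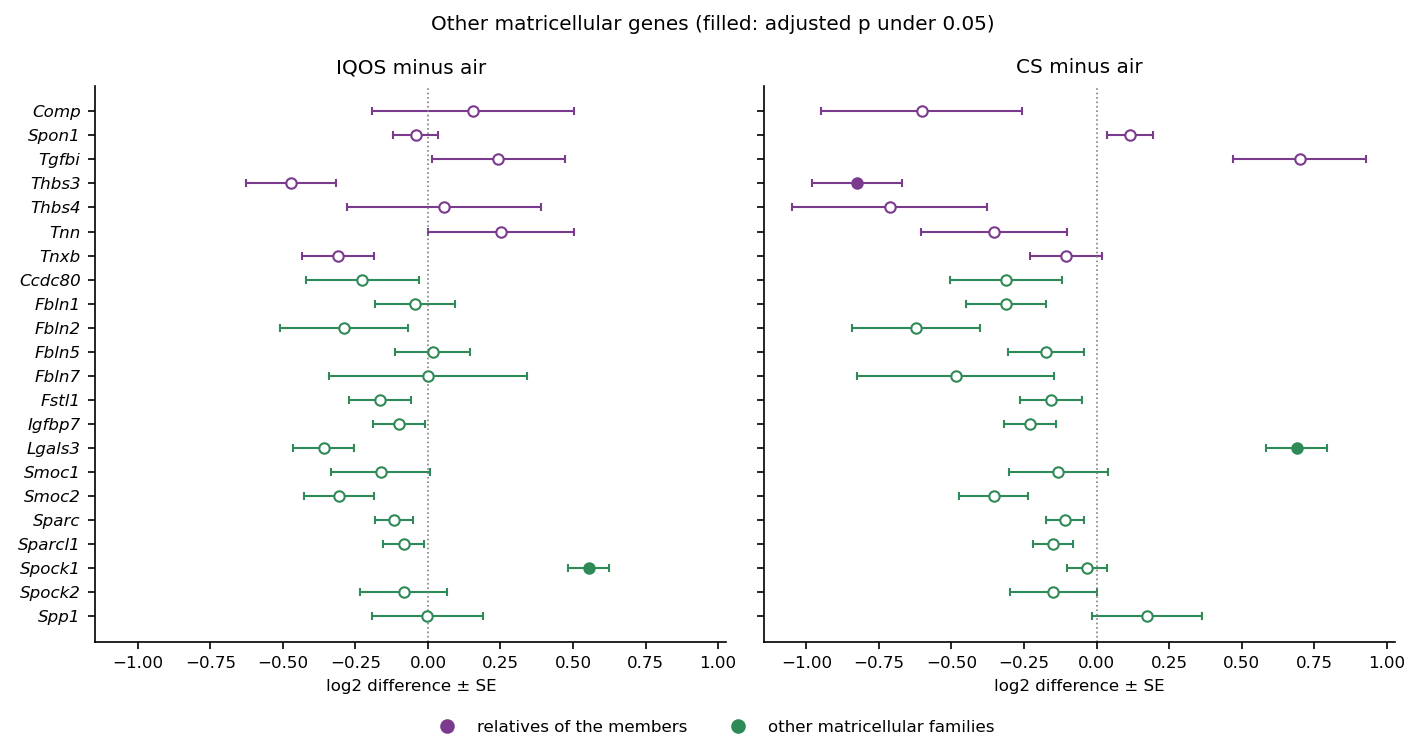
Log2 difference ± SE (x axis) of the tested relatives of the members and of matricellular genes of other families in IQOS minus air and CS minus air, with filled points at an adjusted p under 0.05. Thbs3 at -0.83 and Lgals3 at 0.69 are filled in CS minus air, and Spock1 at 0.55 is filled in IQOS minus air.

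Among 21 listed receptors of matricellular proteins 20 were tested, and none passed in IQOS minus air. In CS minus air 2 of the 20 rose and none fell, a share near the 11.7% of all genes. They were Itgb2, the beta chain of leukocyte integrins, at 1.02 ± 0.14 (adjusted p 0.00808), and the syndecan gene Sdc4 at 0.33 ± 0.08 (adjusted p 0.0439). In IQOS minus CS 3 rose and 2 fell, where 10.1% of all genes passed. Notch1, a receptor bound by Ccn3, was at 0.65 (adjusted p 0.0158), while Itgb2 was at -0.74 (0.0199) and Sdc4 at -0.57 (0.00833). The Sdc4 call in CS minus air held only without IQOS 2 or IQOS 3, reaching 0.132 without 1 array, while that of Itgb2 held without any 1 array. The thrombospondin receptor gene Cd36 was at 0.36 (adjusted p 0.0238) in IQOS minus CS. In that comparison Sdc4 held without any 1 array, while Notch1 ended without CS 2 or IQOS 2, Itgb2 without CS 2 or CS 3, and Cd36 without any CS array, IQOS 1 or IQOS 2.

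Target genes of YAP and TAZ other than Ccn1 and Ccn2 moved in both directions. All 20 were tested, and none passed in IQOS minus air. In CS minus air 3 rose and 5 fell, with a median of -0.02, where 11.7% of all genes passed. The kinase gene Nuak2 rose by 0.53 ± 0.06 (adjusted p 0.00496), a call that held without any 1 array. The exchange factor gene Arhgef17 fell by 0.55 (adjusted p 0.0135), the RNA-binding protein gene Rbms3 by 0.33 (0.0294), and Igfbp3, which binds insulin-like growth factors, by 1.16 ± 0.26 (0.0337). Arhgef17 ended without air 1 or CS 2, Rbms3 held without 3 of the 9 arrays and Igfbp3 without 4. In IQOS minus CS 1 rose and 4 fell, with a median of -0.05, where 10.1% of all genes passed. Tissue factor, F3, fell by 0.96 ± 0.13 (adjusted p 0.00751) and held without any 1 array, and Nuak2 fell by 0.31 (0.0207), ending without CS 2, IQOS 2 or IQOS 3. The receptor kinase gene Axl fell by 0.32 (adjusted p 0.0328) and Fjx1 by 0.66 (0.0421), held without 2 and 1 of the 9 arrays. Of 19 genes of transforming growth factor beta signalling, none passed in IQOS minus air, and in CS minus air 1 rose and 1 fell, namely Tgfb1 at 0.24 ± 0.06 (adjusted p 0.0409) and Tgfb3 at -0.32 (0.0243). Over all genes the shares were the same 11.7% in CS minus air and 10.1% in IQOS minus CS. In the transforming growth factor beta list 1 gene rose (Ltbp1, 0.33) and 1 fell (Smad2, -0.29) in IQOS minus CS. Of these, Tgfb3 held without 4 of the 9 arrays, Smad2 without 3, and Tgfb1 and Ltbp1 without 1 each.

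Markers of the cells that make matricellular proteins differed between groups. The summed level of 13 fibroblast markers, in multiples of the 75th percentile signal, ranged over 348 to 376 in the IQOS arrays, 299 to 331 in the CS arrays and 359 to 379 in the air arrays. All 13 were well above background on all arrays. In CS minus air 3 fell (Col1a1 by 0.93, Col3a1 by 0.91 and Col1a2 by 0.64), where 6.12% of all genes passed lower. The 11 smooth muscle and pericyte markers summed to 103 to 127 in IQOS, 83.1 to 113 in CS and 130 to 142 in air. In CS minus air 4 of the 11 fell, against the same 6.12% of all genes. They were Lmod1 by 0.73, Pdgfrb by 0.56, Des by 0.56 and Cspg4 by 0.44. No marker of either list passed in IQOS minus air. The falls of Ccn4, Ccn5 and Tnc in CS minus air thus stood beside lower fibroblast and muscle sums, and in IQOS minus air beside a lower muscle sum. The muscle sum is carried largely by Acta2, Tagln and Cnn1, at -0.35, -0.23 and -0.49 in IQOS minus air (adjusted p 0.222, 0.457 and 0.157). Myh11, Actg2 and Synpo2 did not fall in that comparison, at 0.02, 0.06 and 0.09. The fibroblast sum is carried largely by Inmt, which differed by 0.03 in IQOS minus air and -0.07 in CS minus air. The 3 collagen genes were below every air array in all IQOS arrays too, at -0.32 for Col1a1, -0.36 for Col1a2 and -0.57 for Col3a1 in IQOS minus air (adjusted p 0.243, 0.185 and 0.0949). The part of these cells in the members' differences was not tested.

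Sums of 8 macrophage markers were 102 to 127 in the IQOS arrays, 214 to 302 in the CS arrays and 90.6 to 103 in the air arrays. All 8 were well above background on all arrays, and 6 rose in CS minus air, where 5.6% of all genes passed higher. The neutrophil sums were 173 to 425 in the IQOS arrays, 329 to 729 in the CS arrays and 182 to 228 in the air arrays. Of 8 listed neutrophil markers 7 were measured, all but Ly6g, and 6 were well above background on all arrays. In CS minus air 1 of the 7 rose, Cd177, against the same 5.6% of all genes. Cd177 was well above background on only 1 air array. The 9 platelet markers, of interest because platelets store thrombospondin 1, summed to 14.9 to 22.4 in the IQOS arrays, 17.3 to 25.1 in the CS arrays and 15.9 to 22.1 in the air arrays, and none passed in any comparison. Their ranges overlapped. The platelet gene Pf4 was higher in every CS array than in any other array. It was at 0.40 in CS minus air (adjusted p 0.0960) and -0.45 in IQOS minus CS (0.0726). The median of the 9 markers was 0.06 and -0.28 in those comparisons. Whether macrophages, neutrophils or platelets had a part in the higher Thbs1 or the lower Spon2 of the CS arrays was not tested. Of 9 airway cartilage markers, 3 were well above background on all arrays and Acan and Hapln1 on none, with sums of 0.862 to 0.875 in IQOS, 0.467 to 0.648 in CS and 0.739 to 0.844 in air. These sums were carried largely by the collagen gene Col2a1, which fell by 1.02 in CS minus air and rose by 1.13 in IQOS minus CS. Those were the directions of Spon2. The other tested cartilage markers did not fall in CS minus air, with Col11a2 at 0.45 (adjusted p 0.115) and Col9a2 at 0.02 (0.955). The part of cartilage in the Spon2 values was not tested. Endothelial sums were 147 to 181 in the IQOS arrays, 144 to 156 in the CS arrays and 126 to 158 in the air arrays. They were carried largely by Cldn5 and Vwf. In CS minus air 2 of the 8 endothelial markers fell, where 6.12% of all genes passed lower. Those were Aplnr at -1.42 (adjusted p 0.00278) and Tek at -0.43 (0.0204). Aplnr rose by 0.92 in IQOS minus CS (adjusted p 0.00740), and no endothelial marker passed in IQOS minus air. Mesothelial sums were 37.7 to 44.3 in IQOS, 50.1 to 63.7 in CS and 37.1 to 53.8 in air. They were carried largely by Krt19, which is an epithelial keratin as well. Its CS minus air difference was 0.51 (adjusted p 0.0585), and the median of the 6 mesothelial markers was -0.01. Cardiac muscle sums were 151 to 229 in IQOS, 91.9 to 156 in CS and 124 to 227 in air. The 5 adipocyte markers, all well above background on all arrays, summed to 21.8 to 37.0 in IQOS, 10.8 to 23.3 in CS and 23.2 to 39.5 in air. Their median was -0.43 in IQOS minus air and -0.96 in CS minus air, where Adrb3 fell by 0.78 (adjusted p 0.0248), and the part of fat cells in the members' falls was not tested.

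**Figure D4:**
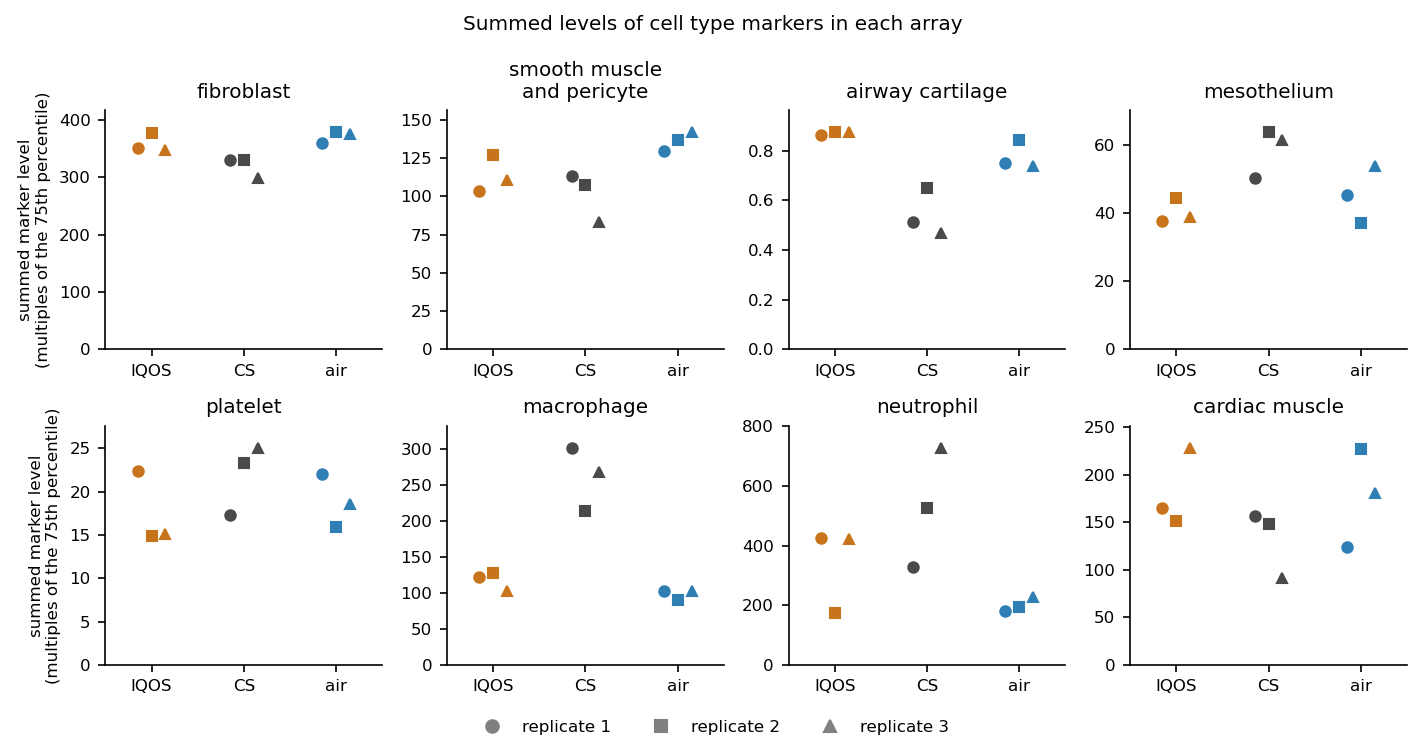
Summed levels of cell type markers in each array, in multiples of the array's 75th percentile signal (y axis, from 0), by exposure group, with symbols for replicates. The macrophage sums of the CS arrays, 214 to 302, lie above those of all other arrays, and the fibroblast sums of the CS arrays, 299 to 331, lie below them.

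The genes most like each of 5 members were ranked by Pearson correlation over the 9 arrays among 16501 genes. The arrays share the group differences, so the correlations only describe. For Ccn4 they were Eef1akmt1 (0.977), Map3k4 (0.977) and Tnfrsf11b, the osteoprotegerin gene (0.976). For Ccn5 they were Bccip (0.981), Dnajc24 (0.969) and Ppp1r12a (0.959), and for Tnc Hpf1 (0.951), Cpsf6 (0.948) and Cdk10 (0.943). For Spon2 they were Klhl13 (0.981), Tvp23b (0.978) and Ltbp3 (0.975). For Thbs1 they were Pprc1 (0.975), the cyclooxygenase 2 gene Ptgs2 (0.972) and the calponin gene Cnn3 (0.969). These neighbours differed in CS minus air by as little as -0.09 for Bccip, by 0.25 for Cnn3, -0.37 for Map3k4 and 0.60 for Pprc1. The largest differences were those of Ptgs2, at 2.78 in CS minus air and -2.14 in IQOS minus CS, of Klhl13, at -1.03 and 0.91, and of Tnfrsf11b, at -0.76 in both IQOS minus air and CS minus air.

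Array row was the setting that weighed most on the calls. With row as a covariate no member passed in any comparison. In that fit CS shares a row with air 3 alone, IQOS shares one with air 1 and air 2, and IQOS and CS share none. The row term thus rests on air 3 against air 1 and air 2, and it cannot be told apart from the spread of the air arrays. Ccn4 was at -0.80 ± 0.15 in IQOS minus air (adjusted p 0.0676) and -1.10 ± 0.19 in CS minus air (0.0579). Thbs1 was at 1.71 ± 0.49 (adjusted p 0.166) and Ccn1 at 1.05 ± 0.21 (0.0831) in CS minus air. Of the 29 calls in the lists of relatives, other matricellular genes, receptors, YAP and TAZ targets and transforming growth factor beta genes, 27 were lost in that fit, those of Thbs3, Lgals3, Itgb2, Sdc4 and F3 included. The 2 kept were Nuak2 in CS minus air and Spock1 in IQOS minus air.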

How the data were processed

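The authors deposited a scanner text file for each array, holding spot intensity values, and processed values for all arrays together. Per the submitters' processing notes, Agilent Feature Extraction (version 10.7.1.1) made the intensities. The deposited processed values hold each intensity as a ratio to the array's 75th percentile, as found from the values (correlation 0.999998 with the normalized log2 signals; column medians 0.114 to 0.121), with no log or gene centring. Here log2 of the background-subtracted, processed intensity minus the log2 75th percentile was used. Control and outlier spots were left out and spots of a probe averaged, giving 56605 probes. A probe was tested if well above background on every array of at least 1 group (37258 probes). All 9 arrays entered 1 limma fit (limma 3.58.1 in R 4.3.3, with version 1.17.8 of the package data.table) with empirical Bayes. Probes were named by matching accessions to RefSeq (GRCm38.p6). 58.3% of probes had 1 symbol, the others being unnamed here. The text names all 10 members by their brightest probe, other probes by range, relatives, in each other pathway list up to 4 genes with the smallest p among those that passed and, for members that passed, their 3 likest genes. Marker genes were named after their values were seen. The members and lists were chosen with earlier results of these data known. A bound sets the brighter group's mean against, per array, the higher of the lowest signal well above background and the probe's own. On simulated data with 37258 probes, 77.6% of probes changed 2-fold were recovered in CS minus air, 76.1% in IQOS minus air and 79.1% in IQOS minus CS. For probes changed 1.5-fold the shares were 38.8%, 38.8% and 40.3%. Fewer probes were changed in the simulation than passed in these data. Its adjusted p threshold thus asked for a smaller p, and the shares do not measure recovery in the real fits. How often differences of these sizes were missed is not known. A planned column of mean signals was absent, so median signals were used for the alternative background correction.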

Additional observations from a re-analysis of the deposited data

Results flagged for a closer look

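The difference between IQOS and CS in their change against air, tested as IQOS minus CS, was largest in Spon2 among the 10 members. Spon2 differed by 2.18 ± 0.51 (SE) on the log2 scale, and all 3 IQOS arrays were above all 3 CS arrays. Low values in the same CS arrays had drawn attention to the gene, so the difference is a description with no p-value. It lay between 1.91 and 2.35 when 1 array was left out, and with array row as a covariate it was 0.95 ± 0.80. That row term comes from the air arrays alone, air 3 against air 1 and air 2. The value therefore does not measure an effect of row in the IQOS or CS arrays. The IQOS arrays lay on a slide of their own.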

How the results depend on the processing

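Of 597 member differences recomputed under 20 alternatives, 508 kept their direction and side of the threshold, 72 lost a call, 5 gained one and 12 changed sign. Most of the 597 had no call to lose, so the 508 do not measure how stable the calls were. The number of members past the threshold (5 in CS minus air, 3 in IQOS minus air, 1 in IQOS minus CS) was 2 in IQOS minus CS with normexp background correction, where in CS minus air 5 passed with Ccn1 in and Tnc out. Without a filter on dim probes, which tests more probes, it was 1 in CS minus air and 0 in IQOS minus CS, with array row as a covariate 0 in each comparison, and with the mean of a gene's probes 3 in CS minus air. Fitting only the groups compared gave 1 in CS minus air and 1 in IQOS minus air. Leaving out 1 array gave 1 to 4 in CS minus air, 0 to 3 in IQOS minus air and 0 to 1 in IQOS minus CS. Spon2 is among those counted in CS minus air and in IQOS minus CS. Its passing or not is no result, because it was selected on CS minus air. The most stable member call was Ccn4 in CS minus air, past the threshold in 19 of 20 alternatives. The least stable were Ccn5, Tnc and Thbs1 in CS minus air, each past it in 8 of 20. Ccn1 passed in CS minus air in 4 of 20. Signs changed only for differences that had not passed. Ccn2 in IQOS minus CS was 0.0311 with normexp, 0.0593 with the row covariate and 0.0112 without CS 1 (-0.2497 to 0.0112 without 1 array). Ccn3 in IQOS minus CS was -0.0064 with normexp, -0.0157 with median centring, -0.07 without CS 3, -0.0048 without IQOS 2 and -0.11 without IQOS 3 (-0.11 to 0.1473 without 1 array). Postn in IQOS minus CS was -0.13 with the row covariate, Spon2 in IQOS minus air 0.48 without air 2 and 0.04 without IQOS 3 (-0.5371 to 0.48 without 1 array), and Thbs2 in IQOS minus air 0.0785 without IQOS 1 (-0.3397 to 0.0785). The cause of these changes was not tested. With the replicate block 5 members passed in CS minus air (Ccn1 in, Tnc out), 2 in IQOS minus air and 1 in IQOS minus CS, and 540 probes in IQOS minus air, against 1387 without it. Deviations of same-numbered arrays from their group means correlated at -0.08 to 0.20, so the numbers were not taken as pairs. Over all probes, normexp gave 2621 calls in IQOS minus air, 54.7% of them higher against 73.7%, and row as a covariate left 311 of 3840 in CS minus air, 287 of 1387 in IQOS minus air and 83 of 3590 in IQOS minus CS. With no filter these were 1543, 357 and 1659. The number of arrays limits precision, and Thbs2 and Tnc lay near background.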
